A study of Mus musculus with 2 samples.

Results

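Wnt4, Wnt6 and Wnt10a (ligands), Fzd6 and Fzd7 (receptors), Dkk3 and Sfrp1 (secreted inhibitor families) and Axin2 and Ascl2 (target genes) were followed in single cells of the mouse corneal epithelium. The rule named 10 genes by symbol, and 9 of them were among the 17891 genes of the deposited table. Wnt7a was not analysed here. Each gene was read in every cell class and in both libraries, which together held 33885 cells. Axin2 and Ascl2 are neither ligands nor receptors, and Dkk3 is a divergent member of its family, so the set is a group of Wnt pathway genes with different roles.

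The study set dry eye disease against control in male C57BL/6J mice, aged 10 weeks. In the dry eye group, 6 right eyes were pooled into 1 cell suspension at day 9 after the right lacrimal glands, extra-orbital and intra-orbital, had been removed. In the control group, 7 left eyes of the 7 operated mice were pooled. The controls were therefore the fellow eyes of operated animals, and side and treatment cannot be told apart. No transgene is named. Each condition was 1 library, so that no test between conditions was possible, and every interval given here covers counting error alone.

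The dry eye library held 16420 cells with a median of 9086.5 unique molecular identifiers (UMIs, one per captured RNA molecule) per cell, and the control library held 17465 cells with a median of 8248. Cell classes were those of the authors' annotation, which the sources used here do not spell out: LSC, TAC1, TAC2, Basal, Wing, Squam, Conj and Immune, and 5 further names with an asterisk. The starred classes lay mostly in the dry eye library, with 85 and 6 LSC* cells, 473 and 133 TAC1* cells, 572 and 21 TAC2* cells, 446 and 12 Wing* cells and 217 and 0 Squam* cells in dry eye and control. Levels are given as CPM, the UMIs of a gene scaled to 1000000 UMIs of the cells in question. Markers of the corneal epithelium summed to 29870 CPM in dry eye and 33484 CPM in control, with all 5 listed genes present. Higher in dry eye were the summed superficial (1801 and 1083 CPM in dry eye and control), conjunctival (4094 and 2751 CPM), limbal (6321 and 4540 CPM) and dividing markers (219 and 164 CPM), while goblet markers summed to 15.9 and 15.6 CPM with Tff1 at 0 in control. Stromal markers summed to 1.73 CPM in dry eye and 3.16 CPM in control from the 3 of 8 in the table, and Thy1 was at 0 in control. Immune markers summed to 9.37 and 9.93 CPM, with Cd207 at 0 in dry eye and Cd3e and Lyz2 at 0 in control. Melanocyte, endothelial and Schwann markers summed to between 0.309 and 13.3 CPM in either library. The libraries shared 74 cell barcodes, and leaving those cells out kept each all-cell ratio of the 9 genes within its counting interval.

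Wnt proteins are secreted, lipid-modified ligands that act over short distances through Frizzled receptors and their LRP co-receptors. In the canonical branch, receptor activation stops the breakdown of beta-catenin, which then acts with TCF and LEF factors on target genes, among them the feedback inhibitor Axin2. In the mouse eye, the secreted inhibitor Dkk2 is known to keep the ocular surface from taking on an epidermal fate, and in human limbal cells WNT7A is known to act upstream of the corneal regulator PAX6.

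The genes lay on 6 mouse chromosomes in build mm10. Wnt6 (chr1:74771892-74785322, plus strand) and Wnt10a (chr1:74791516-74804179, plus strand) are neighbours, with 6193 bases and no annotated gene between them in GENCODE M21. The other genes were Wnt4 (chr4:137277489-137299726), Fzd6 (chr15:39006034-39038188), Fzd7 (chr1:59482424-59486955), Dkk3 (chr7:112116017-112159057), Axin2 (chr11:108920349-108950783), Ascl2 (chr7:142966829-142969264) and Sfrp1 (chr8:23411502-23449632). Wnt6, Fzd6 and Axin2 overlap an RNA gene on the opposite strand. The sources used here do not say how strand was counted, so reads of the pairs may not be separable. The partner of Wnt6 had 70 UMIs in all, that of Fzd6 had 706, and that of Axin2 was not analysed here.

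RefSeq promoter windows (GRCm38.p6) were matched by symbol for 5 of the 9 genes. The windows of Wnt6, Axin2 and Fzd7 are shown because Wnt6 had the widest range of class levels and of compared ratios, Axin2 is the standard readout of beta-catenin activity, and the Fzd7 window was the one of the 5 with a TCF/LEF word. Each is the 250 bases before the RefSeq start, 5′ to 3′ on the plus strand: chr1:74771642-74771891 for Wnt6, chr11:108920099-108920348 for Axin2 and chr1:59481897-59482146 for Fzd7. Capitals mark the TCF/LEF word.
Wnt6: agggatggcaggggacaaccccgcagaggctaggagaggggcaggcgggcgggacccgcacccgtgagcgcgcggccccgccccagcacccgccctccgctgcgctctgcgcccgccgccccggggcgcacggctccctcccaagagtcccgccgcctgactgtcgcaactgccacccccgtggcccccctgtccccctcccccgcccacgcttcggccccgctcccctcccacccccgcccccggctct
Axin2: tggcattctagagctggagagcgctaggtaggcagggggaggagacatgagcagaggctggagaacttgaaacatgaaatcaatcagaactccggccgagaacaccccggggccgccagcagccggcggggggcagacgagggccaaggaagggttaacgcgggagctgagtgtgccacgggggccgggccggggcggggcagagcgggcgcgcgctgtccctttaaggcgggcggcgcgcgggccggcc
Fzd7: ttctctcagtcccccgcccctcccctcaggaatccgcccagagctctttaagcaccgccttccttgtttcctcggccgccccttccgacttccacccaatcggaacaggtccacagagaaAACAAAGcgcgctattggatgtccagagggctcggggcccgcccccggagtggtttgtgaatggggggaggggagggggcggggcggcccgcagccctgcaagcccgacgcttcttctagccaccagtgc
The search took the word CTTTGAT, the related word CTTTGAA, the third form CTTTGTT of the same motif, and lastly the form CTTTGTA, each on both strands. The Fzd7 match, AACAAAG, starts 130 bases before the RefSeq start. Such a word stood in 4874 of 32851 RefSeq windows of the same length, 14.8%, so a match is a common feature, and the absence of one says only that these letters are not in the window.

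In all cells together, none of the 9 genes differed by 1.5-fold between dry eye and control. Among the 13100 genes with at least 100 UMIs, 6.87% were at least 1.5-fold higher in dry eye and 5.02% at least 1.5-fold lower. The median log2 ratio of dry eye over control was 0.11 for the 9 genes and -0.07 for all 13100. Within cell classes the picture was less even: the ligands Wnt6 and Wnt10a were higher in the Basal and Wing classes of the dry eye library and lower in its TAC1* class, and the Dkk3 ratio was below 1 in every class compared.

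Wnt4, a ligand known for kidney tubule and female reproductive tract development, was present in most cells of both libraries. After each cell was thinned to 3000 UMIs, so that depth did not set the share, 66.5% of dry eye and 68.5% of control cells held at least 1 Wnt4 UMI. Its level in all cells was 424 CPM in dry eye and 430.2 CPM in control, a ratio of 0.986 (95% interval 0.976 to 0.995) that became 1.04 when the libraries were scaled to the median ratio of all genes. Among the unstarred classes of at least 100 cells the level was highest in Basal cells, at 535 CPM in dry eye and 497 CPM in control (ratio 1.08, 1.05 to 1.11). It was lowest in Squam cells, at 281 CPM in dry eye and 378 CPM in control (ratio 0.744, 0.725 to 0.764). Thinned shares ran the same way in Squam cells, with 52.1% in dry eye and 61.6% in control. In Basal cells they were 76.6% and 75.1%, with overlapping intervals. No class of at least 100 cells was near 0 for Wnt4, while the 31 dry eye and 20 control Immune cells had 4 and 1 UMIs. Neither difference passed the free RNA check described for Wnt6 and Wnt10a, but that check could not decide for Wnt4. Its lowest class was LSC, where 71.5% of dry eye and 65.4% of control cells held Wnt4 after thinning. A class that holds the gene gives no level of free RNA. Superficial markers in Squam cells summed to 3677 CPM in dry eye and 2364 CPM in control, and their part in the result was not tested. Basal cells had 1.90 times the Squam level in dry eye and 1.32 times in control, the flattest profile of the ligands.

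Wnt6, a ligand made by many epithelia, and Wnt10a, a ligand whose human gene is mutated in ectodermal disorders of teeth, hair and skin, had much steeper profiles. Wnt6 in Basal cells was 138 times its Squam level in dry eye and 105 times in control. For Wnt10a the same ratios were 64.0 and 74.8. In dry eye, Wnt6 stood at 51.5 CPM in Basal, 46.7 in TAC1, 31.2 in LSC, 21.5 in TAC2, 2.96 in Wing, 2.09 in Conj and 0.374 in Squam. In control it stood at 44.9 CPM in TAC1, 39.9 in LSC, 39.3 in Basal, 20.5 in TAC2, 2.89 in Conj, 1.81 in Wing and 0.376 in Squam. Basal and TAC1 could not be ordered in dry eye, nor could TAC1, LSC and Basal in control, since the intervals of neighbours overlapped.

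Wnt10a stood at 97.5 CPM in Basal, 96.7 in LSC, 95.5 in TAC1 and 58.7 in TAC2 of the dry eye library, with the first 3 overlapping. In control it stood at 92.5 CPM in LSC, 80.0 in Basal, 77.6 in TAC1 and 53.4 in TAC2, again with the first 3 overlapping. Both ligands were thus lower in TAC2 than in TAC1: TAC2 over TAC1 was 0.461 in dry eye and 0.457 in control for Wnt6, and 0.615 and 0.687 for Wnt10a. Across the 19 class-by-library groups of at least 100 cells, the log2 levels of Wnt6 and Wnt10a had a Pearson r of 0.974. This is a description, since the groups share 2 libraries and their depth.

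In Basal cells both ligands were higher in dry eye. Wnt6 was 51.5 CPM in dry eye and 39.3 CPM in control (ratio 1.31, 1.20 to 1.43), and after thinning 14.2% of dry eye and 10.4% of control Basal cells held a Wnt6 UMI. Wnt10a was 97.5 CPM in dry eye and 80.0 CPM in control (ratio 1.22, 1.15 to 1.30), with thinned shares of 25.9% and 20.2%. In Squam cells, which had the fewest UMIs of both ligands per cell among classes of at least 100 cells, the thinned shares were 0.140% and 0.134% for Wnt6 and 0.631% and 0.469% for Wnt10a in dry eye and control. A free RNA check took the upper interval limit of a gene's UMIs per cell in its lowest class and removed that amount from the lower interval limit in the library with the higher level. A difference passed where the remainder, in CPM, still exceeded the upper interval limit in the other library, and the Basal differences of both ligands passed. The limbal marker list in Basal cells summed to 1529 CPM in dry eye and 653.6 CPM in control, and its part in the ligand differences was not tested. Median depth was 6126 UMIs in dry eye and 5695 in control Basal cells, and 9518 and 9342.5 in Squam cells.

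In Wing cells the same direction appeared at low levels. Wnt6 was 2.96 CPM in dry eye and 1.81 CPM in control (ratio 1.63, 1.31 to 2.04), and Wnt10a was 7.11 CPM and 4.48 CPM (ratio 1.59, 1.38 to 1.82). These were the 2 of 8 compared genes past 1.5-fold higher in Wing, where 5% of all genes were that much higher and 6.43% that much lower. Thinned shares were 0.790% and 0.402% for Wnt6 and 1.34% and 1.17% for Wnt10a in dry eye and control, and the intervals overlapped between libraries for both. Conjunctival markers in Wing cells summed to 2906 CPM in dry eye and 1646 CPM in control, and superficial markers to 1663 and 1001 CPM, and their part in the result was not tested. In Conj cells Wnt10a was 6.41 CPM in dry eye and 4.17 CPM in control (ratio 1.54, 1.18 to 2.02), a difference that did not pass the free RNA check. Its thinned shares in Conj cells, 1.06% and 0.461%, had overlapping intervals, and 10 cells held 32.9% of the UMIs in 1 of the libraries. Conjunctival markers in these cells summed to 11991 CPM in dry eye and 9647 CPM in control, with their part not tested. Wnt10a was the 1 of 9 past the threshold in Conj, where 2.92% of genes were that much higher and 1.63% lower.

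The TAC1* class went the other way for both ligands. Wnt6 had 39 UMIs, or 6.38 CPM, in dry eye TAC1* cells and 46 UMIs, or 31.9 CPM, in control TAC1* cells (ratio 0.200, 0.127 to 0.313). Cells with a Wnt6 UMI made up 7.19% of the dry eye and 27.1% of the control TAC1* cells before thinning, and 2.59% and 5.26% after it, with overlapping intervals. Wnt10a was 33.2 CPM in dry eye and 76.3 CPM in control TAC1* cells (ratio 0.435, 0.343 to 0.554), with thinned shares of 11% and 21.8% that did not overlap. With Dkk3 these made 3 of 7 compared genes at least 1.5-fold lower in TAC1*, and Ascl2 was 1 of 7 higher. The 3 lower differences passed the free RNA check, though 10 cells held 43.5% of the Wnt6 UMIs in 1 of the libraries. The Ascl2 difference in TAC1* did not pass it and rested on 124 and 16 UMIs, with 75% of them in 10 cells in 1 of the libraries. The background there was wide, with 15.6% of all genes higher and 14.6% lower.

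The TAC1* cells of the libraries also differed in cell type markers. The corneal list summed to 23040 CPM in dry eye and 37760 CPM in control TAC1* cells, and the limbal list, which holds the basal keratins Krt14 and Krt15, to 7296 CPM and 930.2 CPM. The part of these differences in the ligand result was not tested. In unstarred TAC1 cells, Wnt6 was 46.7 CPM in dry eye and 44.9 CPM in control (ratio 1.04, 0.908 to 1.19), and Wnt10a was 95.5 and 77.6 CPM (ratio 1.23, 1.11 to 1.36). With TAC1 and TAC1* joined, the ratio became 0.746 (0.656 to 0.848) for Wnt6 and 0.942 (0.861 to 1.03) for Wnt10a. The ratio in these cells thus depended on how the class was drawn, though the Wnt6 interval in TAC1 and the joined Wnt10a interval held 1. Dry eye had 473 TAC1* beside 1136 TAC1 cells and control 133 beside 1022, and the part of this mix was not tested.

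**Figure D1:**
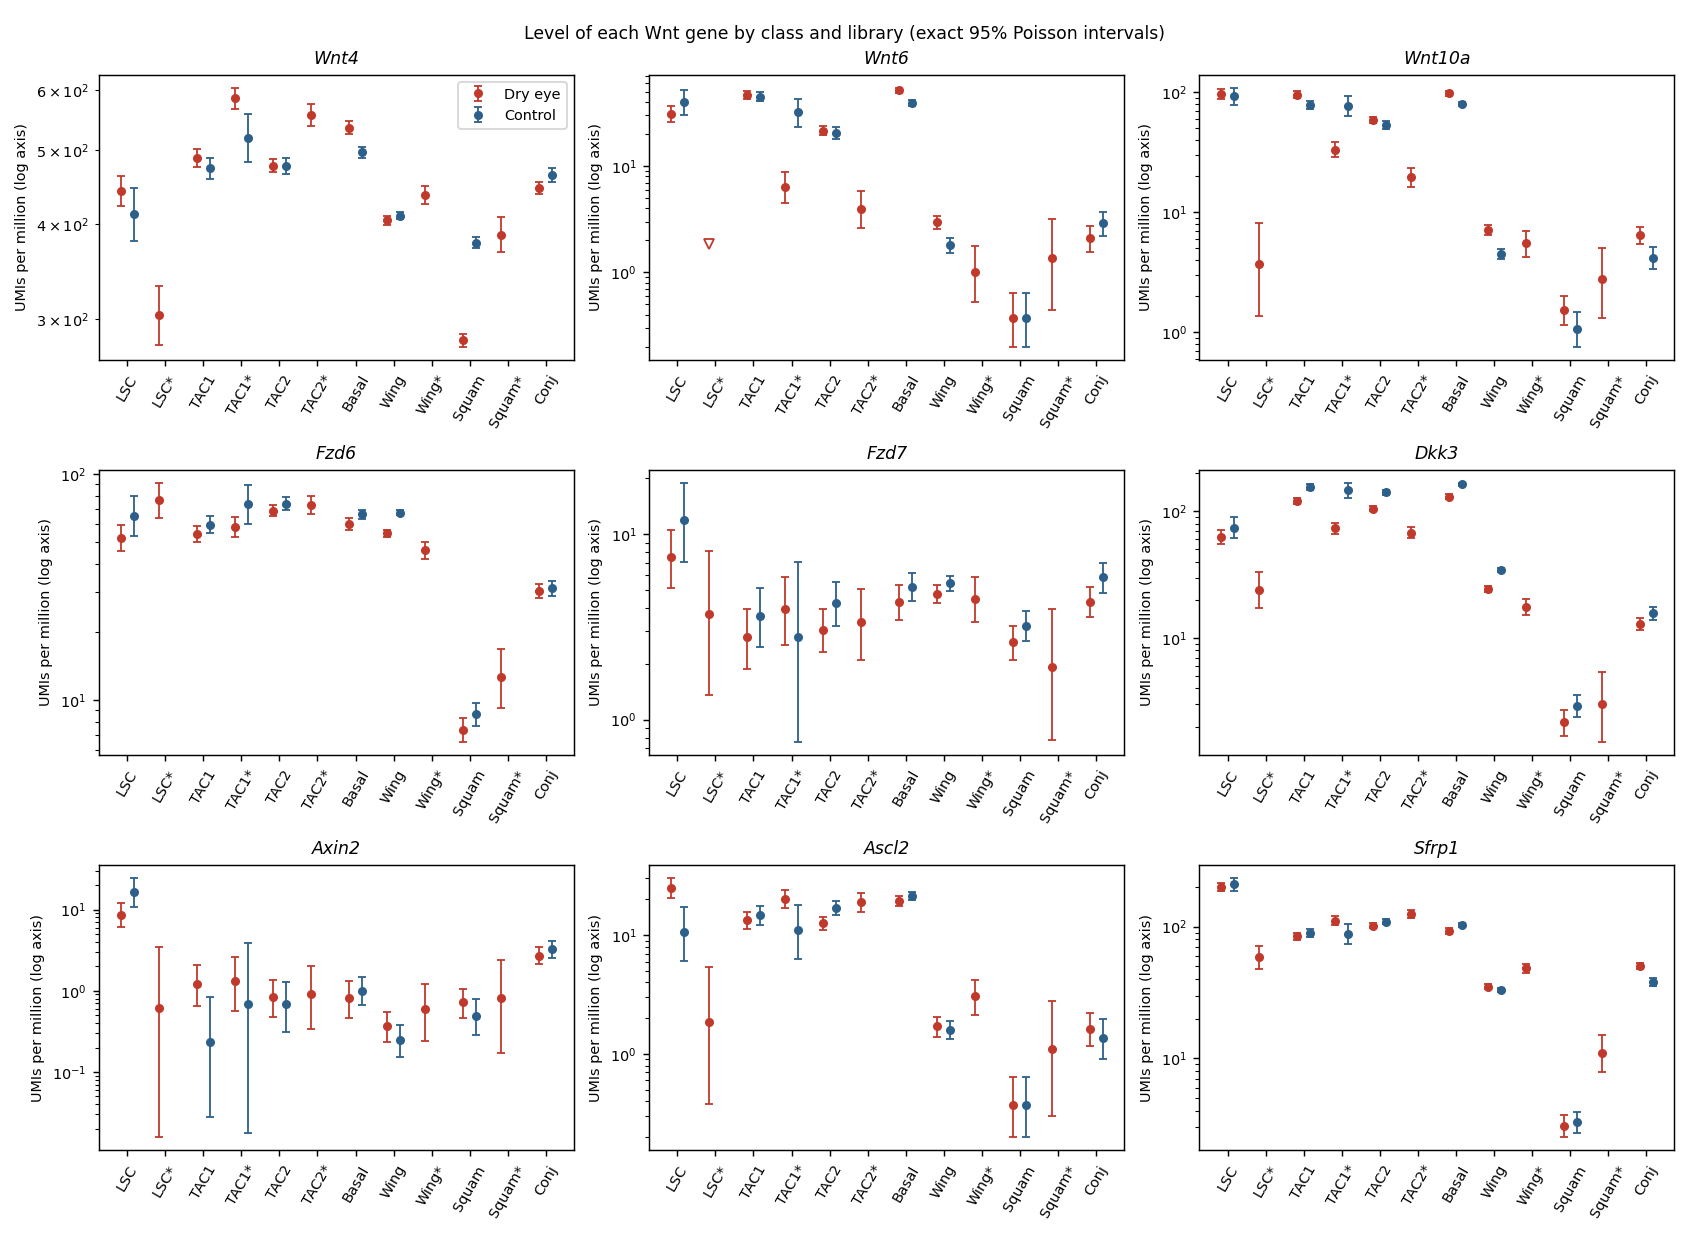
Level of each of the 9 genes in CPM of summed UMIs by cell class, on log axes, with dry eye to the left of control and exact 95% counting intervals; groups of fewer than 50 cells are left out, and the open triangle is the floor of 3 counts for 0 UMIs. Among the unstarred classes shown in dry eye, every gene except Axin2 is lowest in Squam, though for Fzd7 the intervals of neighbours overlap. Wnt4 stays between 281 and 535 CPM in these classes of that library.

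Of the receptors, Fzd6, known in mice for orienting hair follicles, was kept into the Wing layer. Basal over Wing was 1.10 in dry eye and 0.987 in control, and Basal over Squam was 8.11 and 7.68. In all cells Fzd6 was 45.0 CPM in dry eye and 52.8 CPM in control (ratio 0.851, 0.827 to 0.875). The ratio was below 1 in each of the 8 classes compared, and its interval lay below 1 in 3 of them: Wing (54.5 and 67.3 CPM, ratio 0.810), Basal (59.98 and 66.4 CPM, ratio 0.903) and TAC1* (58.2 and 73.5 CPM, ratio 0.792). Of these, the Wing difference alone passed the free RNA check. Over the 8 classes, the median log2 ratio of all genes lay between -0.2 in Squam and 0.04 in TAC1*, with -0.14 in Wing.

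Fzd7, a receptor known from intestinal stem cells in mice, was rare. It had 819 UMIs in dry eye and 942 in control, or 3.96 and 4.92 CPM (ratio 0.804, 0.731 to 0.884). Its profile was flat apart from LSC, which held the most at 7.50 CPM in dry eye, where its interval overlapped that of Wing, and 12.0 CPM in control. Wing had 4.76 CPM in dry eye and 5.42 CPM in control, and Squam 2.62 and 3.21 CPM. The LSC ratio of 0.626 rested on 32 and 18 UMIs and its interval, 0.341 to 1.18, held 1. In Conj cells the ratio was 0.741 (0.567 to 0.967), and in the other 6 classes compared the interval held 1.

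Dkk3, a Dickkopf family member whose effect on Wnt signalling varies with the cell type, was lower in dry eye in most classes. In all cells it was 44.7 CPM in dry eye and 58.9 CPM in control (ratio 0.758, 0.738 to 0.779). The ratio was below 1 in all 8 classes and its interval lay below 1 in 6 of them. Over the same classes the median log2 ratio of all genes lay between -0.2 in Squam and 0.04 in TAC1*. Basal cells had 131 CPM in dry eye and 163 CPM in control (ratio 0.801, 0.763 to 0.841), and thinned shares of 32.8% and 38.2%. TAC2 cells had 105 and 141 CPM (ratio 0.742), TAC1 cells 122 and 156 CPM (ratio 0.781) and Wing cells 24.3 and 34.4 CPM (ratio 0.707). The lowest ratio was in TAC1*, with 73.3 CPM in dry eye and 147 CPM in control (ratio 0.498, 0.422 to 0.590). In LSC and Squam the intervals held 1, and in Conj (ratio 0.820) the difference did not pass the free RNA check. No alternative for all cells took the Dkk3 ratio above 0.797.

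Sfrp1, a secreted protein that binds Wnt ligands, was highest in LSC, at 200 CPM in dry eye and 210 CPM in control (ratio 0.952, 0.836 to 1.09). Among the unstarred classes TAC2, Basal and TAC1 followed at between 84.3 and 109 CPM in either library, and Squam had 3.08 CPM in dry eye and 3.29 CPM in control. In dry eye TAC2* and TAC1* stood between LSC and TAC2, at 124 and 111 CPM. In all cells Sfrp1 was 54.7 CPM in dry eye and 47.7 CPM in control (ratio 1.15, 1.12 to 1.18). Once each dry eye class was weighted by its share of the control UMIs, which was 0 for Squam*, the ratio became 1.0. The classes themselves moved in both directions: Conj had 50.2 CPM in dry eye and 37.9 CPM in control (ratio 1.32, 1.21 to 1.45), a difference that passed the free RNA check, whereas Basal had 92.7 and 103 CPM (ratio 0.898, 0.846 to 0.953), which did not. Thinned shares in dry eye and control were 10.5% and 8.76% in Conj and 24.4% and 27.2% in Basal. The intervals of these shares overlapped between libraries in both classes.

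**Figure D2:**
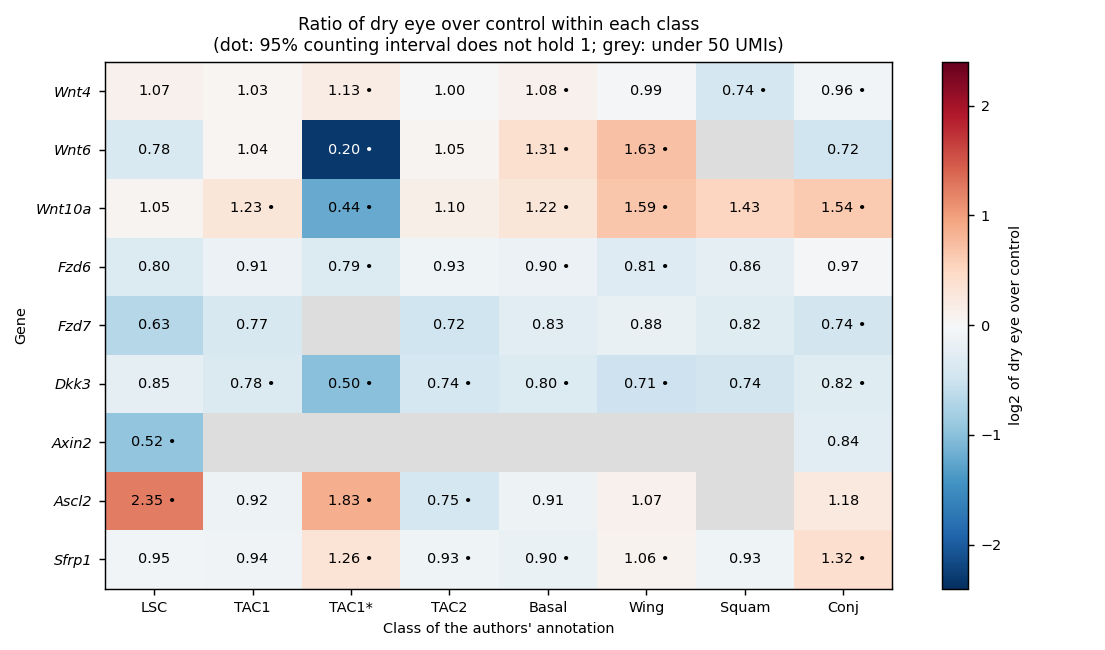
Ratio of dry eye over control for each gene (rows) within each of the 8 compared classes (columns), printed in each cell and coloured by its log2 value; a dot marks a 95% counting interval that does not hold 1, and grey marks fewer than 50 UMIs. Dkk3 lies below 1 in every class, and Wnt6 ranges between 0.200 in TAC1* and 1.63 in Wing.

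Axin2, a scaffold of the beta-catenin destruction complex and a direct target of the pathway, had 225 UMIs in dry eye and 169 in control, or 1.09 and 0.883 CPM (ratio 1.23, 1.004 to 1.51). Weighting the classes to control shares brought the ratio to 1.0. Its highest class was LSC, with 8.67 CPM in dry eye and 16.6 CPM in control, and Conj came next with 2.70 and 3.24 CPM. LSC over Basal was 10.7 in dry eye and 16.6 in control. Within LSC the ratio was 0.521 (0.305 to 0.903) on 37 and 25 UMIs, and 10 cells held 60% of these UMIs in 1 of the libraries. The thinned shares, 2.46% in dry eye and 5.95% in control, had overlapping intervals, and the difference did not pass the free RNA check. The other 6 classes held at most 27 Axin2 UMIs in a library, too few for a comparison.

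Ascl2, a transcription factor that is a Wnt target and sustains stem cells in the mouse intestine, was highest in the inner classes. Basal over Squam was 52.1 in dry eye and 56.7 in control. In dry eye it stood at 25.1 CPM in LSC, 20.3 in TAC1*, 19.5 in Basal, 18.9 in TAC2*, 13.4 in TAC1 and 12.6 in TAC2, and the intervals of neighbours in this order overlapped. In control it was highest in Basal at 21.3 CPM, with TAC2 at 16.9, TAC1 at 14.7 and LSC at 10.6. The LSC ratio was 2.35 (1.39 to 4.27) on 107 and 16 UMIs, thinned shares were 6.97% and 3.24% with overlapping intervals, and 10 cells held 68.8% of the UMIs in 1 of the libraries. Corneal markers in LSC cells summed to 10654 CPM in dry eye and 15536 CPM in control, and their part in the result was not tested. With LSC* joined to LSC the ratio was 1.46 and its interval, 0.903 to 2.49, held 1. In TAC2 the ratio was 0.747 (0.620 to 0.900), a difference that did not pass the free RNA check.

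In LSC, Ascl2 was the 1 of 9 genes at least 1.5-fold higher, and Fzd7 and Axin2 were the 2 lower, where 4.35% of all genes were higher and 7.87% lower. In TAC1 none of 8 passed either way, where 2.39% of genes were higher and 2.25% lower. In TAC2 none of 8 passed, with 3.14% and 4.32% of all genes, and in Basal none of 8, with 2.24% and 2.62%. In Squam none of 6 passed, with 3.94% of all genes higher and 14.5% lower. The median log2 ratio of the genes compared lay between -0.34 in TAC1* and 0.03 in Wing, where that of all genes was 0.04 and -0.14. In Squam it was -0.26 for the genes compared and -0.2 for all genes.

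Within the dry eye library, Wnt6, Wnt10a and Dkk3 were lower in the starred than in the unstarred inner classes. The classes were drawn from all genes of these cells, so these values describe the classes and test nothing. Wnt6 was 6.38 CPM in TAC1* and 46.7 CPM in TAC1 (ratio 0.137), and 3.97 CPM in TAC2* and 21.5 CPM in TAC2 (ratio 0.185). It had 0 UMIs in the 85 LSC* cells, where 3 counts would make 1.85 CPM, so at that floor it was at least 16.8-fold lower there than the measured 31.2 CPM of LSC. The exact interval of the ratio, which also counts the error in LSC, reached up to 0.0742. The floor is 3 counts over the whole class, and 3 cells with a UMI would be 3.53% of the class. Wnt10a was 19.5 CPM in TAC2* and 58.7 CPM in TAC2 (ratio 0.333), and 3.71 CPM in LSC* and 96.7 CPM in LSC (ratio 0.0383). Dkk3 had ratios of 0.602, 0.649 and 0.383 over TAC1, TAC2 and LSC.

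In TAC1* and TAC2* the remaining genes did not follow these 3, but in LSC* Ascl2, Sfrp1 and Wnt4 were lower too. Axin2 had 1 UMI in LSC* and 37 in LSC (ratio 0.0713, 0.00176 to 0.423), and Fzd7 had 6 and 32 (ratio 0.495, 0.169 to 1.2). These UMIs were too few for a comparison. Ascl2 was 20.3 CPM in TAC1* and 13.4 CPM in TAC1 (ratio 1.51, 1.18 to 1.93), and 18.9 CPM in TAC2* and 12.6 CPM in TAC2 (ratio 1.5, 1.20 to 1.87), yet in LSC* it had 3 UMIs, against 107 in LSC (ratio 0.0740, 0.0150 to 0.222). Sfrp1 was 111 CPM in TAC1* and 84.3 CPM in TAC1 (ratio 1.32), and 58.7 CPM in LSC* and 200 CPM in LSC (ratio 0.294). Fzd6 had a ratio of 1.08 in TAC1*, 1.06 in TAC2* and 1.47 (1.17 to 1.84) in LSC*. Wnt4 had ratios of 1.20, 1.17 and 0.686 in the same order. In Squam*, Sfrp1 was 10.99 CPM, against 3.08 CPM in Squam (ratio 3.57, 2.42 to 5.18).

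Counts past 1.5-fold in the starred classes of dry eye were read beside wide backgrounds. In TAC1*, 3 of 8 genes were lower and 1 higher, where 10.2% of all genes were lower and 10.4% higher. In TAC2*, 3 of 8 were lower and 0 higher, against 18.5% and 8.67% of all genes. In LSC*, 5 of 7 were lower (Wnt6, Wnt10a, Dkk3, Ascl2 and Sfrp1) and 0 higher, against 33.8% and 19.5%. In Wing*, 1 of 8 was lower and 1 higher, against 16.1% and 12.6%, and in Squam*, 0 of 6 were lower and 3 higher, against 10.3% and 32.1%. In the control library, where TAC1* held 133 cells, 0 of 7 genes passed either way, against 4.92% lower and 6.22% higher among all genes. TAC1* over TAC1 there was 0.710 (0.511 to 0.966) for Wnt6, 0.983 for Wnt10a and 0.944 for Dkk3.

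**Figure D3:**
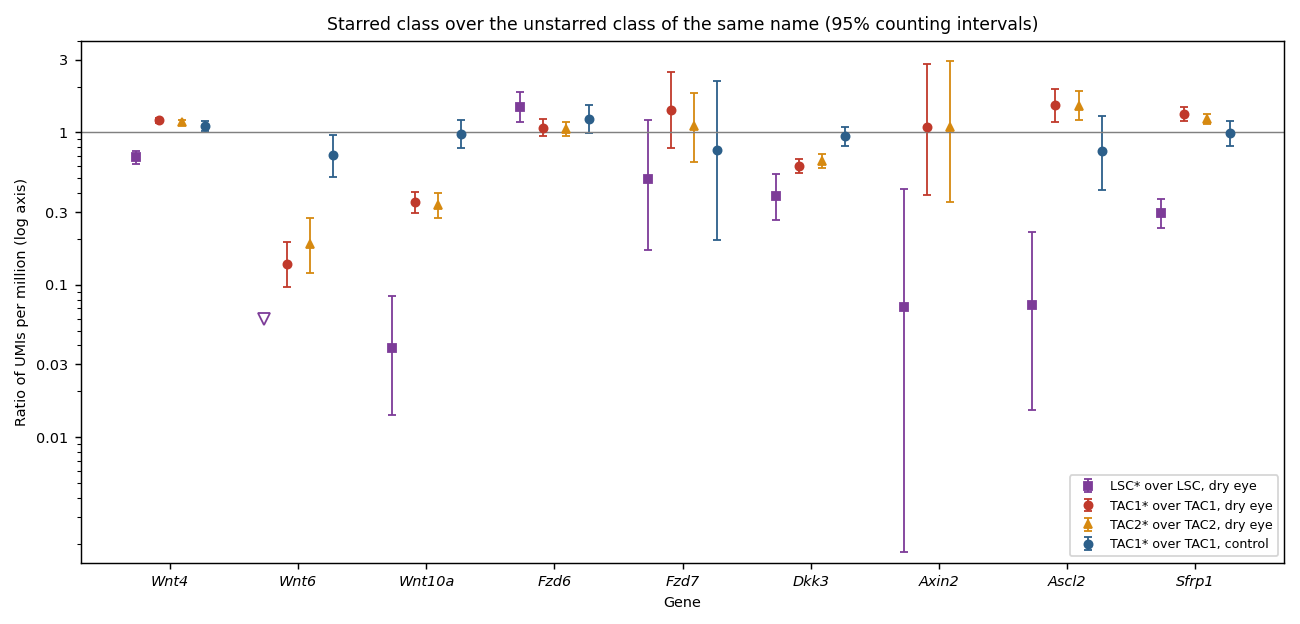
Ratio of each starred class over the unstarred class of the same name on a log axis with exact 95% counting intervals, for LSC*, TAC1* and TAC2* within dry eye and TAC1* within control; an open triangle is the floor of 3 counts for 0 UMIs, and genes with fewer than 20 UMIs are left out. In dry eye, Wnt6 and Wnt10a lie at or below 0.348 in TAC1* and TAC2*, while in control Wnt10a in TAC1* lies at 0.983.

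Co-detection of Wnt6 and Wnt10a was read in LSC, TAC1, TAC2 and Basal of both libraries. After thinning, 111 of 374 Basal cells with a Wnt6 UMI in dry eye (29.7%) also held a Wnt10a UMI, and 571 of 2260 without one (25.3%) did. In control the figures were 107 of 386 (27.7%) and 646 of 3343 (19.3%). In all 8 class-by-library groups the share with Wnt10a was higher among cells with Wnt6, but the intervals were apart in 1 of them, Basal in control. In TAC1 of dry eye the shares were 26.2% and 25.1%.

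The genes whose levels ran most like each member over the 19 class-by-library groups were found among 10223 genes. For Wnt6 these were Rhbdl1 (r = 0.982) and Slc16a10 (r = 0.975), and for Wnt10a they were Spred2 (r = 0.982) and Smim4 (r = 0.979). For Dkk3 they were Tmeff1 (r = 0.995) and Zfp704 (r = 0.994), for Sfrp1 Ifnar2 (r = 0.989), and for Ascl2 Efcab1 (r = 0.982) and Gsdme (r = 0.978). Fzd6 was nearest to Csnk2a1 and Xpot (r = 0.982 each). Wnt4 and Fzd7, with flatter profiles, had lower values: r was 0.918 with Tmem14c and 0.916 with Timm13 for Wnt4, and 0.905 with Gt(ROSA)26Sor and 0.876 with Cldn8 for Fzd7.

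The rest of the pathway was read from a list of 89 other Wnt genes, of which 67 were in the table and 53 had at least 100 UMIs. Of these, 4 were at least 1.5-fold higher in dry eye and 3 at least 1.5-fold lower, and the median log2 ratio was -0.07, as for all genes. Of the 7 other ligands, Wnt9a was higher, at 20.5 CPM in dry eye and 10.9 CPM in control (ratio 1.87, 1.78 to 1.98), and Wnt2 was lower, at 9.90 and 15.4 CPM (ratio 0.643, 0.608 to 0.681). Without the starred classes the Wnt2 ratio was 0.710. Wnt7b, the other of the 2 ligands with the most UMIs, was 35.0 CPM in dry eye and 42.6 CPM in control (ratio 0.823). The secretion factors Wls, which carries Wnt proteins to the cell surface, and Porcn, which attaches their lipid, had ratios of 1.10 and 0.961.

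Of 11 other receptors, Fzd4 was lower, at 5.42 CPM in dry eye and 9.48 CPM in control (ratio 0.571, 0.530 to 0.616), while Ryk and the co-receptor Lrp6 had ratios of 0.958 and 0.796. Of 5 other secreted or surface inhibitors, Apcdd1 was higher on 92 and 50 UMIs (ratio 1.70) and Kremen2 lower on 253 and 377 (ratio 0.621, and 0.671 without the starred classes). Kremen1, a receptor for Dickkopf proteins, and Dkkl1 had ratios of 0.871 and 1.25. Of 3 R-spondin receptors and partner ligases, none passed. Lgr4, a receptor for R-spondins, lay just inside at 20.3 CPM in dry eye and 30.1 CPM in control (ratio 0.674), and Rnf43 had a ratio of 0.844.

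Among 10 cytoplasmic genes none passed, and the kinases Csnk1a1 and Gsk3b had ratios of 1.03 and 1.0. Of 8 nuclear genes, the co-repressor Tle1 was higher on 176 and 102 UMIs (ratio 1.6), whereas Tle4 and Tcf7l2, a TCF factor, had ratios of 1.03 and 0.893. Of 2 further targets, Myc was 9.70 CPM in dry eye and 5.67 CPM in control (ratio 1.71, 1.59 to 1.84), and 1.42 without the starred classes, while Ccnd1 had a ratio of 1.10. None of 5 planar polarity genes passed, with Daam1 at 0.891 and Celsr1 at 1.07.

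**Figure D4:**
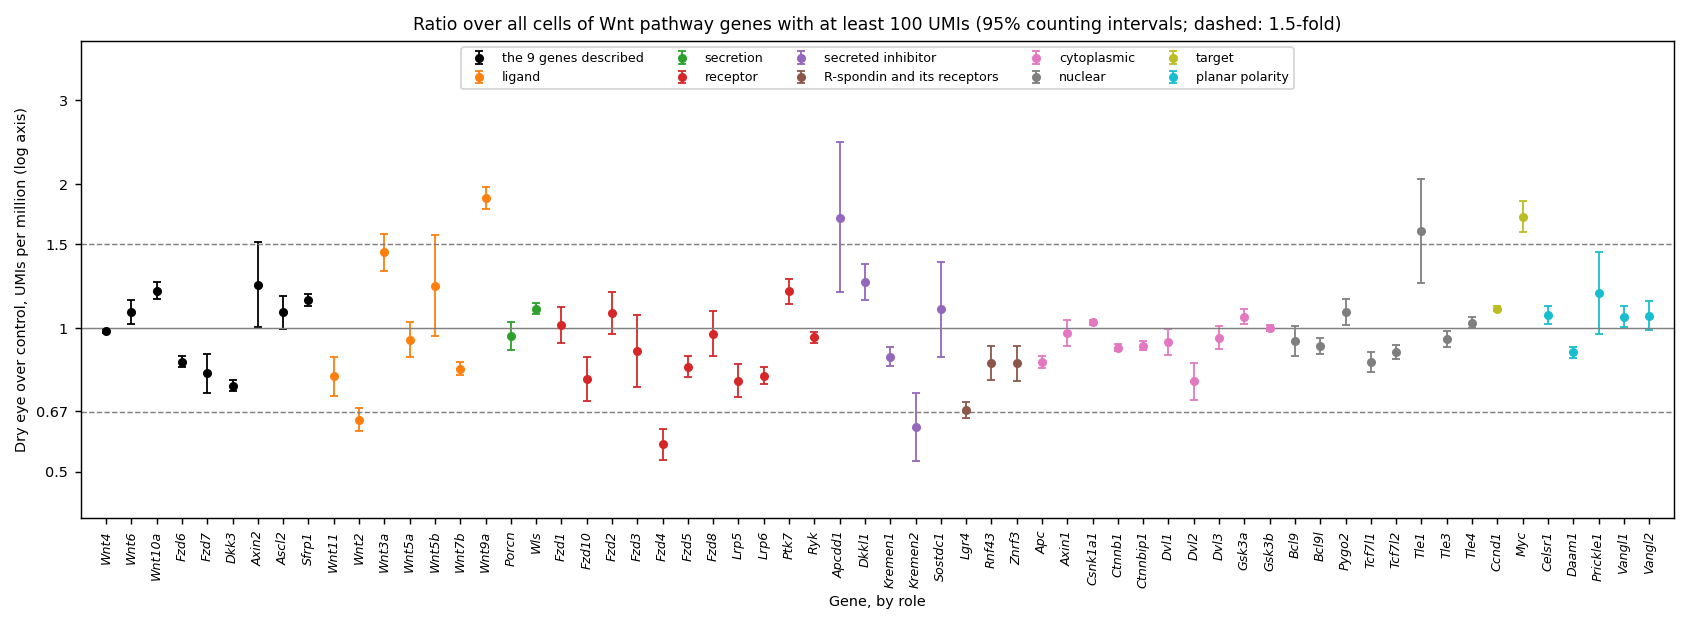
Ratio of dry eye over control in all cells for the 9 genes and the other Wnt pathway genes with at least 100 UMIs, grouped by role, on a log axis with exact 95% counting intervals and dashed lines at 1.5-fold either way. Wnt9a at 1.87 and Fzd4 at 0.571 mark the ends of the range.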

How the data were processed

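The authors deposited a table of UMI counts by gene and cell, not normalized, from 10x Chromium 3′ v3.1 libraries. The submitters' processing notes name Cell Ranger 6.0.1, Seurat 4 and mm10, with no role or order, and the cell filter, the doublet treatment and the way classes were made are not given in the sources used here. No cell was removed further, no doublet caller was run, and the deposited UMAP columns were not used. Samples and classes were taken from the deposited annotation, and all columns of per-sample values were used.

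UMIs were summed per class and library and given as CPM of all UMIs of those cells. One count in all cells was 0.00483 CPM in dry eye and 0.00522 CPM in control. Levels and shares have exact Poisson and exact Clopper-Pearson 95% intervals, and ratios an exact interval from the split of the UMIs. With 1 library per group no p-value was computed. A gene was past the threshold at 1.5-fold, with at least 100 UMIs in all cells or 50 in a class, and classes needed 100 cells in each library (50 for starred against unstarred). Thinning each cell to 3000 UMIs left out 784 dry eye and 1094 control cells. Likeness was Pearson's r of log2(CPM + 1), for genes with at least 500 UMIs. The ratio and its interval were checked on simulated counts of whole libraries with 200 changed genes, and the other steps were not checked in this way.

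The members and lists were chosen with earlier results of these data known. Named were all members, the other pathway genes past 1.5-fold, the 2 with the most UMIs in each role, and the 2 genes most like each member, of which 1 is not reported here. Python 3.11.15, numpy 2.4.6, scipy 1.17.1, pandas 2.3.3 and matplotlib 3.10.9 were used.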

Additional observations from a re-analysis of the deposited data

Results flagged for a closer look

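For 5 genes, the dry eye over control ratio lay above 1 in one class and below 1 in another, each time with an interval that left out 1. How many of all genes would meet the same rule was not counted, so the number describes these genes and does not set them apart. With 1 library per group, the difference between the classes was not tested. Wnt4 had a ratio of 1.08 within Basal and 0.744 within Squam. Wnt6 had a ratio of 1.63 within Wing and 0.200 within TAC1*, and Wnt10a 1.59 within Wing and 0.435 within TAC1*. Ascl2 had a ratio of 2.35 within LSC and 0.747 within TAC2. Sfrp1 had a ratio of 1.32 within Conj and 0.898 within Basal. The Sfrp1 difference within Basal and the Ascl2 difference within TAC2 did not pass the free RNA check. Nor did the Wnt4 differences, but for Wnt4 the check could not decide, because each class of at least 100 cells held the gene.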

How the results depend on the processing

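No paired analysis was possible because each group was 1 library. Of the recomputed all-cell ratios of the 9 genes, 63 moved by less than their counting interval and 26 moved further. A change of side of 1 was counted only where the main interval left out 1, and this befell 1 ratio (Wnt4, 1.04 when scaled to the median ratio). Without the starred classes Wnt6 was 1.24 and Wnt10a 1.32. With dry eye classes weighted to control shares of UMIs Ascl2 was 0.938, below 1, while its main ratio was 1.08 with an interval, 0.997 to 1.17, that held 1. None of the 9 genes passed 1.5-fold, or 2-fold, under any alternative run. Within classes 87 ratios kept within their interval, 14 moved and 1 changed side by the same rule (Wnt10a within TAC1, 0.942 with TAC1* joined). The Wnt6 ratio within TAC1, whose interval held 1, also fell below 1 with TAC1* joined but was counted as moved. Other Wnt pathway genes past the threshold, 4 higher and 3 lower, numbered 0 and 0 at 2-fold, 1 and 0 with at least 20 CPM, and 1 and 1 with weighted classes. With at least 20 UMIs 8 were higher, and without the starred classes 1 was lower. Over all genes, 900 were higher and 657 lower at 1.5-fold, against 396 and 111 at 2-fold, 1430 and 1119 with at least 20 UMIs and 134 and 67 with at least 20 CPM. With weighted classes 497 were higher, and without the starred classes 427 were lower. Stricter thresholds test fewer genes or a larger fold, and the cause of the other moves was not tested. All 18 shares of cells were higher without thinning.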

Other observations

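Some pathway genes outside the 9 had class profiles of their own. Wnt9a was highest in Squam among the unstarred classes of dry eye, at 30.0 CPM in dry eye and 11.2 CPM in control, and it was 20.1 and 9.71 CPM in Wing and 18.9 and 17.5 CPM in Basal. In dry eye it reached 58.5 CPM in Squam*. Wnt2 and Fzd4 were highest in the inner classes. Wnt2 was 37.0 CPM in dry eye and 41.9 CPM in control Basal cells, 22.9 and 36.1 CPM in TAC1 cells, and 11.8 and 31.9 CPM in TAC1* cells. Fzd4 was 12.1 CPM in dry eye and 17.4 CPM in control Basal cells, 9.81 and 16.8 CPM in TAC1 cells, and 3.60 and 22.2 CPM in TAC1* cells.

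Myc ran the other way in TAC1* cells, with 30.8 CPM in dry eye and 15.3 CPM in control, while TAC1 cells had 18.2 and 17.6 CPM. Lgr4 was highest in LSC, with 52.9 CPM in dry eye and 77.8 CPM in control, and it was 20.5 and 31.7 CPM in Wing and 6.45 and 12.3 CPM in Squam. These class values were looked up after the all-cell ratios were known and were not tested.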
